A study of Mus musculus with 29 samples.

Results

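Potassium channel genes were taken as the protein-coding mouse genes whose symbol begins with Kcn followed by a subfamily letter, which gave 94 genes of 21887 protein-coding genes placed on chromosomes in the RefSeq annotation of GRCm38.p6. All 94 had a row in the count tables. Of these, 76 had enough reads to be tested, 11 had reads but too few, and 7 had no read in any of the 10 RNA libraries (Kcna10, Kcng4, Kcnj1, Kcnj15, Kcnk15, Kcnk16 and Kcnv2). By subunit type the 94 genes comprised 17 pore subunits of the Kv1 to Kv4 families (Kcna to Kcnd), 10 silent Kv subunits (Kcnf, Kcng, Kcns, Kcnv), 5 Kv7 subunits (Kcnq) and 8 subunits of the EAG, ERG and ELK families (Kcnh). A further 8 genes belonged to the Slo and SK families (Kcnma, Kcnn, Kcnt, Kcnu), called calcium- and sodium-activated channels here although Kcnu1 is opened by alkaline pH and voltage. There were also 15 inward rectifiers (Kcnj), 14 two-pore-domain channels (Kcnk) and 17 auxiliary subunits or regulators (Kcnab, Kcne, Kcnip, Kcnmb, Kcnrg).

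The samples came from the cortex of E16.5 mouse embryos that received trichostatin A (TSA), an inhibitor of histone deacetylases, or vehicle. Nuclei were sorted into a fraction positive and a fraction negative for Tbr2, the transcription factor encoded by Eomes that marks the basal progenitors of the cortex. RNA-seq covered 2 Tbr2-positive TSA, 3 Tbr2-positive vehicle, 2 Tbr2-negative TSA and 3 Tbr2-negative vehicle libraries. ChIP-seq for H3K9ac, an acetylation of histone H3 found at active promoters and removed by deacetylases, covered 4, 3, 4 and 4 libraries of the same groups. The labels give the sort as the genotype and name no strain, dose or transgene, and they do not say whether replicates came from separate embryos or litters, so a p-value here speaks of the scatter among these libraries, which may be technical. For RNA the protocol text speaks of whole tissue while the series describes sorted nuclei.

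RNA libraries held 18567111 to 26282652 counts, and the Kcn genes took 0.0998% to 0.16% of them. The 8 basal progenitor markers were all higher in the Tbr2-positive vehicle libraries (median log2 fold change 3.31), and 6 of 8 neuronal and 8 of 8 interneuron markers were lower. The basal progenitor list holds Eomes, whose protein was sorted on. All marker lists were chosen with earlier results of these data known, so these counts are no independent check of the sort. Of the neuronal markers 1, Rbfox3, was higher (0.92 ± 0.18). Markers of oligodendrocyte precursors (4 of 5, median -2.29) and of microglia (2 of 6, median -1.42) were lower too, and 2 of 8 radial glial markers were higher. The part of these other cell types in the Kcn values was not tested. The summed CPM of the 8 interneuron markers was 103 to 209 in Tbr2-positive vehicle libraries against 652 to 756 in Tbr2-negative vehicle libraries. In TSA libraries the summed CPM of ribosomal protein genes was 15040 to 20080, against 7432 to 12500 in vehicle libraries. The H3K9ac lists held 31823 to 40053 peaks in the Tbr2-positive TSA libraries and 47835 to 82164 in the other groups, at 15173175 to 30267202 ChIP tags per library. The counts do not show whether reads were kept by strand, so a gene may not be told from one that overlaps it. Another annotated gene overlaps 42 of the 94 Kcn genes, Kcnd2, Kcnma1, Kcnn2, Kcnip3, Kcns2, Kcnq3 and Kcnab1 among them. For 10 it is protein-coding (Kcnab2, Kcnb2, Kcnh3, Kcnip1, Kcnmb3 and Kcnrg among those named below), and for the others a noncoding gene or a pseudogene.

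Potassium channels let potassium ions leave or enter the cell along their gradient and so set the resting potential, the shape of the action potential and the rate of firing. Pore subunits differ in what opens them: depolarisation for the Kv families, intracellular calcium or sodium for the Kcnma, Kcnn and Kcnt genes, and neither for the inward rectifiers and two-pore-domain channels, which carry resting and leak currents. In the cortex, progenitors have mostly leak and inward rectifier currents, and newborn neurons add delayed rectifier, A-type and M-type currents as they become excitable. Auxiliary subunits such as the KChIP (Kcnip), KCNE and BK beta (Kcnmb) proteins change the gating and trafficking of the pores.

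**Figure D1:**
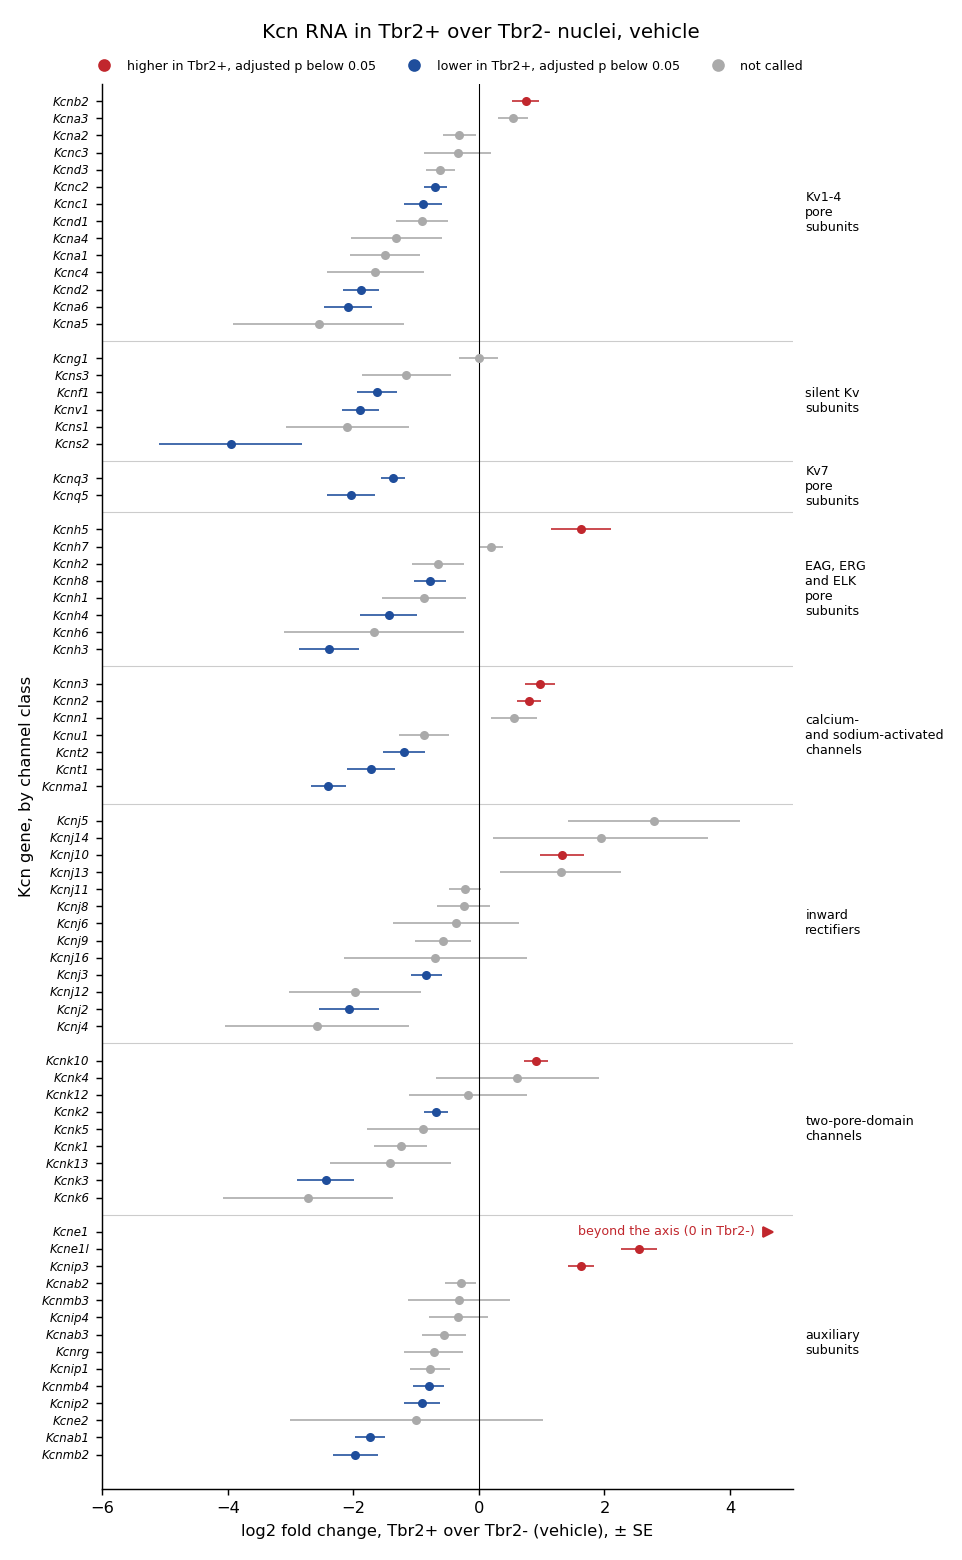
Log2 fold change of 73 of the 76 tested Kcn genes in Tbr2-positive over Tbr2-negative vehicle nuclei, by channel class, with its standard error (bars) and calls at an adjusted p of 0.05 in colour. The 23 lower genes drawn lie left of 0 and the 9 higher ones are spread over 6 classes; Kcne1, listed without a read in Tbr2-negative libraries, is drawn at the edge.

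Promoters are shown for genes whose H3K9ac or RNA is described below. Each runs from 250 bases before to 50 bases after a RefSeq transcription start (GRCm38.p6), 5′ to 3′ on the gene's strand, with CpG dinucleotides in capitals. At its start Kcng3 had no peak in the Tbr2-positive TSA libraries and one in all 3 Tbr2-positive vehicle libraries. The rule given below called such a loss in 1.06% of all protein-coding genes. It did not call Kcng3 with equally long lists or a window of 2 kb. Kcnj5 had no peak at its start in the Tbr2-positive vehicle libraries. The Kcng3 start lies at chr17:83631846-83632145 on the minus strand, and that of Kcnj5 at chr9:32344295-32344594, also minus.
Kcng3: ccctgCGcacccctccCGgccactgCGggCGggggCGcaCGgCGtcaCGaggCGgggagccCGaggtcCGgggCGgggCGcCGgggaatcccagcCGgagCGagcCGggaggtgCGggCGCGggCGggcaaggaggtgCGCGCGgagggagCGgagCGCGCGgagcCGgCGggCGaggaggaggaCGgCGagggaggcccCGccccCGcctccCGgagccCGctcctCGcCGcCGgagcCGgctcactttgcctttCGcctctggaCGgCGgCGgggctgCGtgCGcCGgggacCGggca
Kcnj5: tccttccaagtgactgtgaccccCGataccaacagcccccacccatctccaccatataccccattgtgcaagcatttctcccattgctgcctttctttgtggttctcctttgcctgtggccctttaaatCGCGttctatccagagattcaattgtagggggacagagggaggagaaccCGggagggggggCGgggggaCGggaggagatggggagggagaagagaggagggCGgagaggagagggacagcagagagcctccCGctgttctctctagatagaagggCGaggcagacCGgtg

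Kcnd2 (chr6:21215096-21215395, plus) and Kcnma1 (chr14:24004156-24004455, minus) are genes with lower RNA in Tbr2-positive nuclei whose start was marked in all 15 libraries. Kcnn3 (chr3:89519914-89520213, plus) and Kcne1l (chrX:142306149-142306448, minus) are genes with higher RNA there, marked in 15 and in 10 libraries.
Kcnd2: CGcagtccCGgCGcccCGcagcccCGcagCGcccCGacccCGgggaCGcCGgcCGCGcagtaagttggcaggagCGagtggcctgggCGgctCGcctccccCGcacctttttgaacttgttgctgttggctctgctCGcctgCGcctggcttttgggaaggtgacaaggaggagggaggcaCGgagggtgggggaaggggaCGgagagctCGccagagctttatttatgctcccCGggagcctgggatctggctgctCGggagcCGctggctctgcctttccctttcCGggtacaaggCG
Kcnma1: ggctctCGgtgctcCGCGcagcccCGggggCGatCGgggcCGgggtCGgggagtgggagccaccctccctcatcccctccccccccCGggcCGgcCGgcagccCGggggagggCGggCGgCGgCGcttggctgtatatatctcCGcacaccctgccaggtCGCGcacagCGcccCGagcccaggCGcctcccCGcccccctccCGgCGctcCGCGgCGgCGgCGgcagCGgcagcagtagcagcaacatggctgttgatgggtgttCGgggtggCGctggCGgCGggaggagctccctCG
Kcnn3: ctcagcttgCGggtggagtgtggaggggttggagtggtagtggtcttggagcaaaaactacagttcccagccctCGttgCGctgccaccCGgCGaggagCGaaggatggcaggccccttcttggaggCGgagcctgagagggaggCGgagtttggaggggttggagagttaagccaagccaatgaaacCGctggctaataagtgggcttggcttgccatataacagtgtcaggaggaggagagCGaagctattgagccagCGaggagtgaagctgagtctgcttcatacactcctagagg
Kcne1l: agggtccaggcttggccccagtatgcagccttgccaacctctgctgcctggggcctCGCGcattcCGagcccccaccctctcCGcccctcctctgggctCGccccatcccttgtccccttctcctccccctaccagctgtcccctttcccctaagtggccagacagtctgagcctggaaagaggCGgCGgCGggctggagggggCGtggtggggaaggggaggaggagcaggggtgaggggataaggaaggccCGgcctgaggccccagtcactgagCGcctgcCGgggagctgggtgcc

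Kcnk2 has several starts. The one at the gene's outer end (chr1:189402224-189402523, minus) had a peak within 1 kb in 2 libraries, and an inner one (chr1:189343304-189343603, minus) in all 15.
Kcnk2 outer start: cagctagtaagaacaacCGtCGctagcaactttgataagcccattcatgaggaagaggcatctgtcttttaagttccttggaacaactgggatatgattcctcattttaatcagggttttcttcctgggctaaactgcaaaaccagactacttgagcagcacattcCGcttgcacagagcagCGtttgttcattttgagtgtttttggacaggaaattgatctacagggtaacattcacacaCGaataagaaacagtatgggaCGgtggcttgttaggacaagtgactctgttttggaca
Kcnk2 inner start: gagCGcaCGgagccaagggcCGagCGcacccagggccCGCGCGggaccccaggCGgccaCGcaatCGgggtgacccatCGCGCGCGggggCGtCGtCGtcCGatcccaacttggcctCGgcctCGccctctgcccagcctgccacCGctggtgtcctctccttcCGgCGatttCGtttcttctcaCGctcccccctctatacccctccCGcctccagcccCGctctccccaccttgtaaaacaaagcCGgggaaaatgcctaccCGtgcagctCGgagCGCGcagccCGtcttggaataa

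CpG content and the mark did not run in parallel over these few starts. The 2 Kcnk2 windows hold 6 CpG at the outer start and 33 at the inner one. Kcng3 holds 49, Kcnma1 36, Kcnd2 26, Kcne1l 12, Kcnn3 11 and Kcnj5 10. Sequences were listed for 69 of the 94 genes, at 94 starts. The 47 starts marked in every library had a median of 18 CpG and the 16 marked in none a median of 4.5, beside 22 and 2 over the starts of all protein-coding genes. Among short motifs read on both strands, CAGATG, an E-box of the kind bound by proneural factors, stood in 20.2% of Kcn promoters and in 14.6% of all promoters. GGACAG, a piece of the element bound by the repressor REST, stood in 28.7% and 22.3%, and the E-box CACGTG in 7.45% and 7.84%. Of the 8 windows shown, GGACAG was found in Kcnj5, in Kcne1l and at the outer Kcnk2 start, and CAGATG at the outer Kcnk2 start.

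The vehicle libraries addressed which channel transcripts set the Tbr2-positive fraction apart. Most Kcn genes that differed were lower: of 76 tested, 25 were lower and 9 higher in Tbr2-positive nuclei at an adjusted p of 0.05 (edgeR quasi-likelihood test, Benjamini-Hochberg over 20078 genes). Over all genes tested, 11.5% were lower and 9.96% higher, 21.4% in either direction. The median log2 fold change was -0.82 over the Kcn genes and -0.05 over all genes, and 16 of 76 Kcn genes had a positive one. Leaving out single vehicle libraries gave 16 to 22 lower Kcn genes, beside 1703 to 1898 of all genes, and 6 to 8 higher ones, beside 1483 to 1669. The 16 came without Tbr2-negative vehicle replicate 3, where 1703 of all 19777 genes were lower. In bulk libraries such as these, fewer cells of a type and less RNA per cell cannot be told apart.

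Kv7 subunits, the pores of the M-current that restrains repetitive firing, were lower as a class, with 3 of 4 tested genes called and a median log2 fold change of -1.70. Kcnq3 stood at 27, 32.3 and 27.5 CPM in the Tbr2-positive vehicle libraries, against 57.6, 89.6 and 76.8 CPM in the Tbr2-negative ones. The groups did not overlap. It averaged 28.9 ± 2.94 CPM in Tbr2-positive and 74.7 ± 16.1 CPM in Tbr2-negative nuclei (SD, n = 3 each), and its log2 fold change was -1.37 ± 0.19 with an adjusted p of 0.000251 in edgeR. Kcnq5 was lower by a log2 fold change of -2.04 ± 0.38.

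Among Kv1 to Kv4 pore subunits 5 of 15 were lower and 1 was higher. Kcnd2, an A-type channel of dendrites, stood at 7.2, 14.9 and 10.6 CPM in Tbr2-positive and at 40, 39.6 and 40.6 CPM in Tbr2-negative vehicle libraries. Its groups did not overlap. It averaged 10.9 ± 3.87 CPM in Tbr2-positive and 40.1 ± 0.52 CPM in Tbr2-negative nuclei (SD, n = 3 each; log2 fold change -1.88 ± 0.29, adjusted p = 0.000556, edgeR). Kcna6, of the Kv1 family, was lower by -2.08 ± 0.38. Kcnb2, a Kv2 delayed rectifier, went the other way: 89.5, 62.2 and 84.7 CPM in Tbr2-positive libraries and 36.4, 55.3 and 49 CPM in Tbr2-negative ones (log2 fold change 0.75 ± 0.21, adjusted p = 0.0248, edgeR). The Tbr2-positive libraries of Kcnb2 all lay above the negative ones, and another protein-coding gene overlaps its span. Silent subunits, which form channels only together with Kv2 subunits, had 3 of 6 tested genes lower and none higher. Kcns2 had the largest decrease of a named gene, to 0.547, 0.0412 and 0 CPM in Tbr2-positive against 4.14, 1.38 and 3.84 CPM in Tbr2-negative libraries, and Kcnv1 was lower by -1.89 ± 0.29.

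Calcium- and sodium-activated channels split within the class, with 2 of 7 higher and 3 lower. Kcnma1, the large-conductance BK channel, stood at 5.68, 10.4 and 4.75 CPM in Tbr2-positive and at 39.9, 38.3 and 31.8 CPM in Tbr2-negative vehicle libraries. The groups were far apart (log2 fold change -2.40 ± 0.28, adjusted p = 7.56e-05, edgeR). Its beta subunit gene Kcnmb2 was lower as well (-1.97 ± 0.35). The small-conductance SK channels went the other way. Kcnn2 averaged 159 ± 30.2 CPM in Tbr2-positive and 91.3 ± 17.2 CPM in Tbr2-negative nuclei (0.80 ± 0.19). Kcnn3 stood at 39, 57.3 and 44.1 CPM in Tbr2-positive against 29.1, 20.9 and 21.5 CPM in Tbr2-negative libraries, without overlap (0.97 ± 0.24, adjusted p = 0.0112, edgeR).

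In the remaining pore classes both directions occurred. Kcnj10, the Kir4.1 channel best known from glia, averaged 20.2 ± 4.97 CPM in Tbr2-positive and 8.02 ± 3.14 CPM in Tbr2-negative nuclei (SD, n = 3 each; log2 fold change 1.33 ± 0.35, adjusted p = 0.0158, edgeR). Kcnj2, the strong inward rectifier Kir2.1, was lower (-2.07 ± 0.48). These and Kcnj3 were the only 3 called of 13 tested inward rectifiers. Of 9 two-pore-domain channels, Kcnk3 (TASK-1) was lower by -2.44 ± 0.46 and Kcnk2 (TREK-1) by -0.69 ± 0.19, and Kcnk10 (TREK-2) was higher by 0.91 ± 0.19. Of the EAG, ERG and ELK genes, Kcnh3 was lower by -2.38 ± 0.48 and Kcnh5 was higher by 1.63 ± 0.48. The Kcnh5 values were 9.94, 14.2 and 8.58 CPM in Tbr2-positive and 4.52, 4.89 and 1.16 CPM in Tbr2-negative libraries. Of 16 alternative fits, the call ended in 4 for Kcnb2 and for Kcns2, in 3 for Kcnh5 and in 2 for Kcnj10.

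Auxiliary subunits held the 2 largest increases among genes that passed the test, those of Kcne1 and Kcne1l. Kcne1l, the KCNE family gene on the X chromosome, stood at 49.5, 44.3 and 51.3 CPM in Tbr2-positive and at 10.1, 8.19 and 6.62 CPM in Tbr2-negative vehicle libraries (log2 fold change 2.54 ± 0.29, adjusted p = 6.04e-05, edgeR). Kcnip3, which encodes KChIP3, also known as the calcium-binding repressor DREAM, averaged 107 ± 24.4 CPM in Tbr2-positive and 34.7 ± 8.21 CPM in Tbr2-negative nuclei (1.63 ± 0.21). Kcne1 had 0.842, 1.81 and 1.89 CPM in the Tbr2-positive libraries and no count in any of the Tbr2-negative vehicle libraries. Its mean of 1.52 CPM was 10.7-fold over a floor of 3 counts per library, a floor that covers counting error only (adjusted p = 0.00406, edgeR). Of the 14 auxiliary genes tested 4 were lower, among them Kcnab1, a beta subunit of Kv1 channels.

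**Figure D2:**
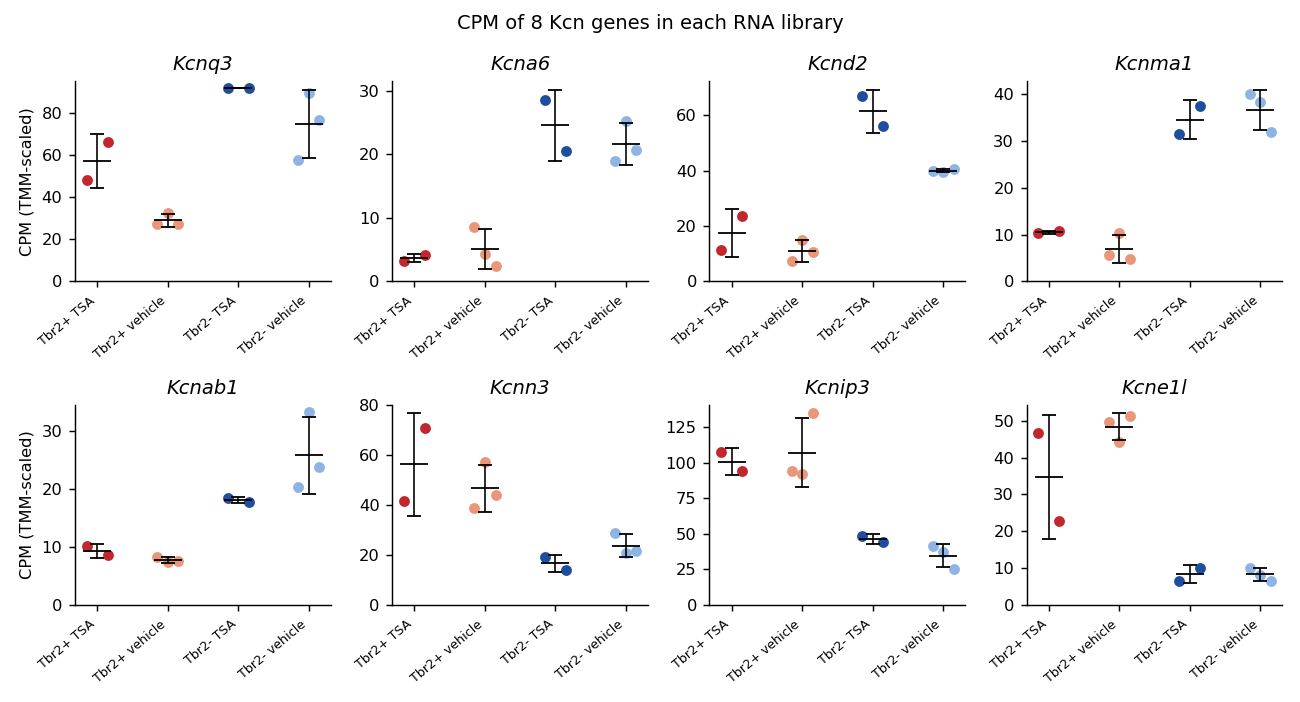
CPM after TMM scaling of 8 Kcn genes in the 10 RNA libraries, with points for libraries and bars for the mean ± SD of each group. Kcnd2 and Kcnma1 are lower and Kcnn3, Kcnip3 and Kcne1l are higher in Tbr2-positive nuclei under both treatments.

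The same comparison under TSA called fewer genes, with 2 libraries in each group. Of 76 Kcn genes 13 were lower and 4 higher in Tbr2-positive nuclei, beside 5.13% and 4.19% of all genes (9.32% in either direction), and the median was -0.74 against -0.02. All 4 higher genes (Kcne1, Kcne1l, Kcnip3 and Kcnn3) and 11 of the 13 lower ones had been called in the same direction in vehicle, which is 44.4% of the 9 genes higher and 44% of the 25 lower in vehicle. The 2 others were Kcnab2 and Kcnmb3. Kcnn3 stood at 41.9 and 71.1 CPM in Tbr2-positive TSA libraries, against 19.2 and 14.2 CPM in Tbr2-negative TSA libraries (log2 fold change 1.76 ± 0.30, adjusted p = 0.00359, edgeR). Kcne1l had 46.6 and 22.8 CPM in Tbr2-positive TSA libraries, against 6.64 and 10 CPM in Tbr2-negative ones. Kcnip3 had 107 and 94.1 CPM in Tbr2-positive TSA libraries, against 48.8 and 44.1 CPM in Tbr2-negative ones. None of these 3 genes overlapped between the groups of 2 libraries. Here and elsewhere, the share of all genes whose 2 groups did not overlap was not counted. Kcne1 had 0.552 and 2.92 CPM in Tbr2-positive TSA libraries and no count in Tbr2-negative ones. Its mean of 1.73 CPM was 13.8-fold over a floor of 3 counts per library.

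Among the lower genes with counts in both populations under TSA, Kcnj2 changed most (-3.14 ± 0.63), followed by the sodium-activated channel gene Kcnt1 (-3.04 ± 0.50) and Kcna6 (-2.74 ± 0.48). Kcnt1 had 1.36 and 1 CPM in Tbr2-positive and 7.89 and 11.6 CPM in Tbr2-negative TSA libraries. Kcnf1 (-1.83 ± 0.39), Kcnd2 (-1.82 ± 0.35), Kcnma1 (-1.71 ± 0.33), Kcnv1 (-1.66 ± 0.36) and Kcnmb2 (-1.60 ± 0.42) were lower too. Kcnab2 (-1.10 ± 0.30) and Kcnmb4 (-1.08 ± 0.30) had smaller decreases, and their calls ended in 9 and in 13 of 16 alternative fits, with adjusted p up to 0.256 and 0.206 (edgeR). For the called genes given with a value above, the call under TSA ended in at most 4 of these fits. Kcnmb3 had no count in the Tbr2-positive TSA libraries and 0.25 and 0.752 CPM in the Tbr2-negative TSA ones. Their mean of 0.501 CPM was 3.8-fold over the floor of 3 counts per library. Kcnmb3 lies under the 1 CPM set for naming in this comparison and was added after its values were seen. Fewer genes passed without 1 of the TSA libraries, among Kcn genes and among all genes. Without Tbr2-positive TSA replicate 1 or 2 the median log2 fold change was -0.94 or -0.82 over the Kcn genes. Over all genes it was -0.04 or -0.06. Without Tbr2-negative TSA replicate 1 or 2 it was -0.85 or -0.67 over the Kcn genes and 0.02 or 0.01 over all genes. Each of these fits has a group of 1 TSA library, which is assumed to vary like the other groups.

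The effect of TSA itself was tested within each population. In Tbr2-negative nuclei 1 of 76 Kcn genes was lower and 0 were higher, beside 0.359% and 0.817% of all genes (1.18% in either direction). At an unadjusted p under 0.05 there were 9, or 11.8%, beside 20.1% of all genes. DESeq2 called 2 higher and 2 lower, beside 1086 and 915 of all genes. The edgeR count was 0 without Tbr2-negative vehicle replicate 1 or 3 or Tbr2-positive vehicle replicate 2, fits in which no gene at all was called. It was 0 too with the replicate number as a block, beside 11 higher and 3 lower of all 20078 genes. Fits without a Tbr2-negative TSA library leave a group of 1 and are not counted here.

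Genes that did not pass in Tbr2-negative nuclei are given by their values. Kcnj5, a G-protein-activated inward rectifier (Kir3.4), had 4.42 and 0.627 CPM in TSA libraries and 0.211, 0 and 0 CPM in vehicle libraries (adjusted p = 0.0865, edgeR). The TSA libraries of Kcnj5 differed from each other by more than its lower one differed from vehicle. Kcnk2 averaged 47.3 ± 0.635 CPM in TSA (n = 2) and 30.2 ± 5.76 CPM in vehicle libraries (n = 3; log2 fold change 0.65 ± 0.21, adjusted p = 0.112, edgeR). Kcns3 (1.75 ± 0.75) and Kcnip1 (0.71 ± 0.34) had positive values, and Kcnt2 (-1.14 ± 0.39), Kcna2 (-0.74 ± 0.30) and Kcna1 (-1.59 ± 0.64) negative ones. DESeq2 called Kcnj5 (adjusted p = 0.0116), Kcnk2 (0.0426) and Kcnt2 (0.0336). Beside these values, the summed CPM of the 8 interneuron markers was 1195 to 1283 in Tbr2-negative TSA libraries against 652 to 756 in Tbr2-negative vehicle libraries, and its part in them was not tested.

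In Tbr2-positive nuclei edgeR called no Kcn gene for TSA, and 0 of all 20078 genes. At an unadjusted p under 0.05 there were 13, or 17.1%, near the 15.8% of all genes. DESeq2 called 1 higher and 4 lower, beside 549 and 466 of all genes. Kcnq3 came closest among the positive ones, with 48.1 and 66.5 CPM in TSA libraries against 27, 32.3 and 27.5 CPM in vehicle libraries. Its groups did not overlap (log2 fold change 0.98 ± 0.20, adjusted p = 0.0948, edgeR; 0.0022 with DESeq2). Kcnk2 (0.57 ± 0.21) and Kcnmb2 (0.95 ± 0.38) followed by p. Among the negative ones, Kcnmb3 had no count in TSA libraries and averaged 0.988 CPM in vehicle libraries (adjusted p = 0.0948, edgeR). This mean was 7.49-fold over the floor of 3 counts per library. Kcna3, a Kv1 channel, had 11.8 and 9.11 CPM in TSA libraries against 24, 21.6 and 19.2 CPM in vehicle libraries (-1.05 ± 0.28, adjusted p = 0.11, edgeR). Kcnt1 (-1.44 ± 0.46) and Kcnh5 (-1.65 ± 0.55) came next. DESeq2's 5 calls were Kcnq3, higher, and Kcnmb3, Kcna3, Kcnt1 and Kcnh5, lower. Without Tbr2-positive TSA replicate 2 the median log2 fold change was -0.21 over the Kcn genes and -0.09 over all genes. The 1 TSA library left was assumed to vary like the other groups.

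The difference between the populations in their response to TSA was tested as an interaction, Tbr2-positive minus Tbr2-negative. No Kcn gene and no gene at all passed with edgeR (5 Kcn genes, 6.58%, at an unadjusted p under 0.05, beside 5.49% of all genes), while DESeq2 called 1 Kcn gene, beside 7 higher and 4 lower of all genes. In Kcnab1 the TSA libraries lay above every vehicle library in one population and below every one in the other, at 10.2 and 8.52 CPM in TSA against 8.29, 7.37 and 7.52 CPM in vehicle libraries of Tbr2-positive nuclei. In Tbr2-negative nuclei its values were 18.5 and 17.8 CPM in TSA against 20.4, 33.1 and 23.7 CPM in vehicle libraries (interaction 0.78 ± 0.38, adjusted p = 0.897, edgeR). This pattern, above in Tbr2-positive and below in Tbr2-negative nuclei, held for 2 of 76 Kcn genes and for 0.877% of all genes, and the opposite one for none and 0.647%.

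Other interaction values among the smallest p were 0.69 ± 0.29 for Kcnq3 and 0.78 ± 0.38 for Kcnn3 on the positive side. On the negative side they were -1.20 ± 0.55 for Kcnj10, -1.32 ± 0.61 for Kcnt1 and -0.81 ± 0.39 for Kcnab2, and Kcnmb3, at 0 in the Tbr2-positive TSA libraries. Kcnj10 had 14.2 and 9.06 CPM in TSA against 24.6, 14.8 and 21.1 CPM in vehicle libraries of Tbr2-positive nuclei. In Tbr2-negative nuclei it had 8.18 and 13.1 CPM in TSA against 8.44, 4.68 and 10.9 CPM in vehicle libraries. None of these passed the adjustment. The ribosomal protein genes, with a median log2 fold change of 0.82 for TSA in both populations, moved with the TSA libraries, and their part in the Kcn values was not tested.

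**Figure D3:**
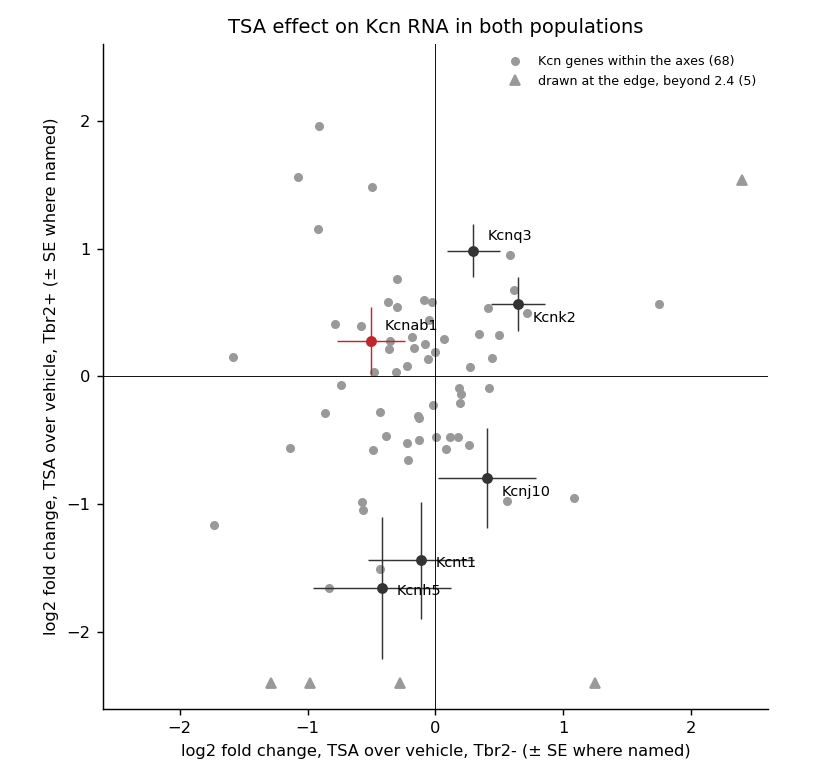
Log2 fold change for TSA over vehicle of Kcn genes in Tbr2-positive (vertical axis) and Tbr2-negative nuclei (horizontal axis), with standard errors for 6 named genes, and 73 of the 76 tested genes drawn. Kcnq3 lies at 0.98 and Kcnh5 at -1.65 on the vertical axis, and 5 genes beyond the axes are drawn at the edge.

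Genes that work with potassium channels or against them in excitability were read from fixed lists in the same vehicle comparison. Of 10 tested partners without a Kcn symbol, 7 were lower and 0 higher in Tbr2-positive nuclei, with a median log2 fold change of -2.02. The counts of this paragraph stand beside the 11.5% of all genes lower and 9.96% higher in vehicle, and 5.13% and 4.19% under TSA. Dpp6 (-2.36 ± 0.26) and Dpp10 (-2.66 ± 0.34), auxiliary subunits of Kv4 channels such as Kcnd2, were among them, as was Abcc8 (-2.25 ± 0.27), the SUR1 subunit of ATP-sensitive channels. Hcn channels, which carry the hyperpolarisation-activated current, had 2 of 4 lower, voltage-gated sodium channel genes 7 of 10 and pore subunits of voltage-gated calcium channels 7 of 9, none of them higher, with medians of -1.08, -1.59 and -1.18. A list of sodium pump subunits, which build the potassium gradient, and of cation-chloride cotransporters, which run on ion gradients, was mixed, with 2 of 11 higher and 5 lower and a median of -0.09. Of the cotransporters that export potassium with chloride, Slc12a5 was lower by -1.90 ± 0.28 and Slc12a7 was higher by 2.03 ± 0.32. Between the populations under TSA the lower genes numbered 4, 0, 3, 2 and 4 in the lists of partners, Hcn, sodium, calcium and transporter genes, and 1 transporter was higher. The median over all genes was -0.05.

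H3K9ac was read as the presence of a peak within 1 kb of either end of the gene. Fewer Kcn genes were marked in Tbr2-positive than in Tbr2-negative nuclei. In each Tbr2-positive TSA library 50 to 52 of 94 were marked, and in each Tbr2-positive vehicle library 58, 63 and 63. The Tbr2-negative libraries marked 65 to 70 under TSA and 67 to 71 with vehicle. The Tbr2-positive TSA libraries thus lay below all others. Over all protein-coding genes the shares were 57.3% to 58.5% in Tbr2-positive TSA libraries, 63% to 64.7% in Tbr2-positive vehicle libraries and 61.5% to 65.4% in Tbr2-negative ones. The Kcn share lay below that of all genes in every Tbr2-positive TSA library, at 53.2% to 55.3%, and above it in every Tbr2-negative library, at 69.1% to 75.5%. Tbr2-positive vehicle libraries lay on both sides of it, at 61.7% to 67%.

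**Figure D4:**
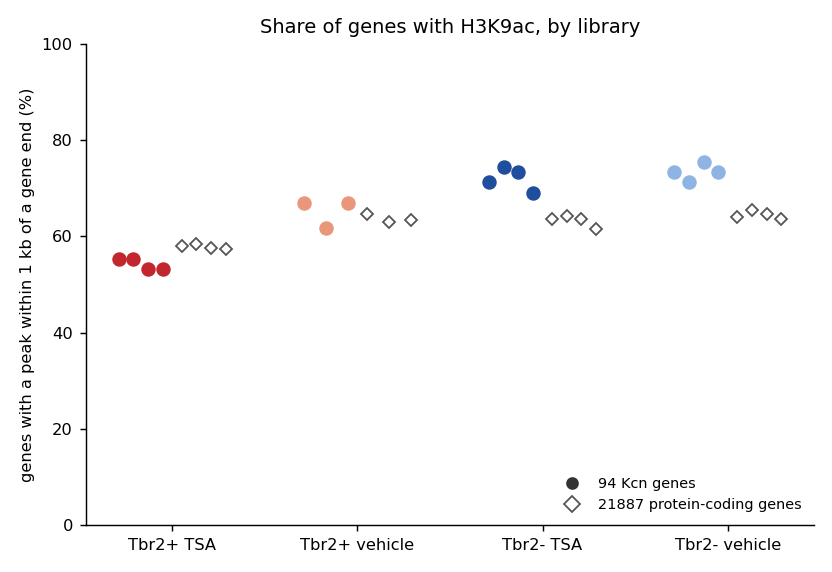
Share of the 94 Kcn genes (filled circles) and of 21887 protein-coding genes (open diamonds) with an H3K9ac peak within 1 kb of a gene end, in each of the 15 libraries, on an axis in percent. Kcn genes reach 53.2% to 55.3% in Tbr2-positive TSA libraries and 69.1% to 75.5% in Tbr2-negative ones.

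The names of the peak lists carry a lane number from 1 to 3, and the order of the populations held within lanes. In lane 1 both Tbr2-positive TSA libraries marked 52 Kcn genes and the Tbr2-positive vehicle library 63, and in lane 2 the TSA library marked 50 and the vehicle libraries 58 and 63. Tbr2-negative libraries marked 67 to 69 in lane 1, 69 to 71 in lane 2 and 65 to 69 in lane 3, where the Tbr2-positive group had TSA libraries alone, at 50. The shorter peak lists of the Tbr2-positive TSA libraries moved with these counts, and the losses are therefore also given with equally long lists.

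Of 94 Kcn genes, 44 were marked in all 15 libraries, 15 in none and 35 in some, which is 46.8% in all and 16% in none, beside 54.4% and 27.6% of all protein-coding genes. Among EAG, ERG and ELK genes, 7 of 8 were marked in every library of each of the 4 groups. Kcn genes marked in every library of a group numbered 44 in Tbr2-positive TSA, 54 in Tbr2-positive vehicle, 63 in Tbr2-negative TSA and 62 in Tbr2-negative vehicle nuclei. These are 46.8%, 57.4%, 67% and 66% of the Kcn genes, beside 54.8%, 59.9%, 59.7% and 60.7% of all protein-coding genes. Inward rectifiers gave 4, 6, 10 and 9 of 15 in this order of groups, and silent subunits 3, 6, 8 and 8 of 10. Kv1 to Kv4 subunits gave 10, 11, 13 and 13 of 17. Calcium- and sodium-activated channels stayed within 6 to 7 of 8.

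**Figure D5:**
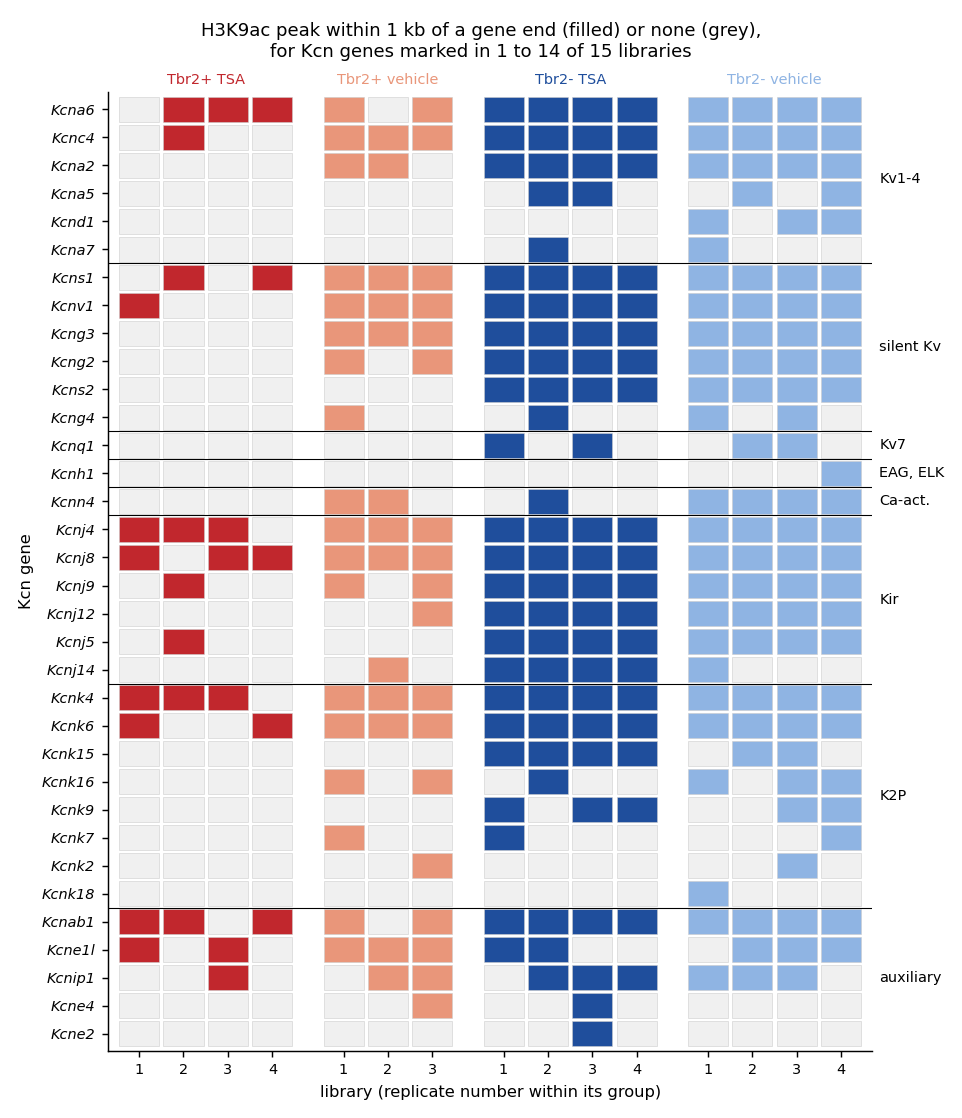
Presence of an H3K9ac peak within 1 kb of a gene end (filled) for 34 of the 35 Kcn genes marked in some of the 15 libraries, with libraries in columns by group and genes in rows by class. Filled cells are sparsest in the Tbr2-positive TSA columns, and Kcns2 and Kcnj5 are filled in all 8 Tbr2-negative libraries and in none of the 3 Tbr2-positive vehicle ones.

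Calls of a lost or gained mark required a peak in every library of one group and in none of the other, which is a rule without a p-value. In vehicle, no Kcn gene was marked in Tbr2-positive nuclei alone, beside 0.101% of all genes, and 2 were marked in Tbr2-negative nuclei alone, Kcnj5 and Kcns2, beside 0.42%. With the strongest 31823 peaks of each library, a choice made after seeing the data that makes the lists equally long, there were 5, these and Kcna6, Kcnj12 and Kcnk6, beside 0.886% of all genes. Kcns2 had no peak in any of the 7 Tbr2-positive libraries. Its peaks in the 8 Tbr2-negative libraries, at the end of lower coordinate of the gene (chr15:34837355-34843407), reached −log10 q of 12.9 to 25 under TSA and 19.6 to 26.1 with vehicle, as the authors' peak caller gave them. Its RNA was lower in Tbr2-positive nuclei too, as given above. At the Kcnj5 start printed above, the peaks in Tbr2-negative libraries had −log10 q of 1.98 to 9.8 under TSA and 7.46 to 9.11 with vehicle, and 1 Tbr2-positive TSA library had one at 2.8. Its RNA did not follow, at 1.26, 0.33 and 0.044 CPM in Tbr2-positive and 0.211, 0 and 0 CPM in Tbr2-negative vehicle libraries (adjusted p = 0.178, edgeR).

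Under TSA, 7 Kcn genes were marked in all Tbr2-negative libraries and in no Tbr2-positive one, and 0 the other way, beside 1.35% and 0.00457% of all genes. They were Kcna2, Kcng2, Kcng3, Kcnj12, Kcnj14, Kcnk15 and Kcns2. With a window of 2 kb there were 4 (Kcnj12, Kcnk15, Kcnk9 and Kcns2), beside 1.38% of all genes. With equally long lists there were 6, beside 0.608% of all genes, and 4 of the 7 were among them (Kcng2, Kcng3, Kcnj12 and Kcns2). Not all of these peaks lie at a start. Those of Kcna2 and Kcnk15, both on the plus strand, were at the end of higher coordinate, which is the end of transcription. The listed start of Kcna2 was marked in all 15 libraries and that of Kcnk15 in none. RNA of most of these genes was low or absent, with Kcng2 and Kcng3 too low to be tested and Kcnk15 without a read. Kcna2, at 17.5 CPM in Tbr2-positive and 13.7 CPM in Tbr2-negative TSA libraries, was the exception. Kcnj12 averaged 0.634 CPM in Tbr2-positive and 2.82 CPM in Tbr2-negative TSA libraries.

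The effect of TSA on the mark was read in the same way within each population. In Tbr2-positive nuclei Kcng3, a silent subunit, was the single Kcn gene called, with no peak in the 4 TSA libraries and a peak in all 3 vehicle libraries, beside 1.06% of all genes lost and 0.00457% gained. The vehicle peaks at the Kcng3 start had −log10 q of 4.42, 5.73 and 5.48, among the weaker ones of their lists (a median percentile of 8.4). With equally long lists no Kcn gene was called, beside 0.11% of all genes. With a window of 2 kb Kcng4 and Kcnn4 were called in its place, beside 1.41% of all genes. With a window of 500 bp Kcnc4 was called as well as Kcng3, beside 0.836% of all genes. Leaving out single libraries gave 1 to 3 genes, Kcng3 always among them, beside 1.27% to 1.89% of all genes. There were 2 without TSA replicate 1 or 2 and 3 without vehicle replicate 2 or 3. Kcng3 RNA was at 0 CPM in both Tbr2-positive TSA libraries and at 0.126, 0 and 0 CPM in the vehicle libraries, where no difference was detectable. In Tbr2-negative nuclei no Kcn gene gained or lost the mark under TSA, beside 0.00914% and 0.0274% of all genes. Kcnj14 gained it without vehicle replicate 1, beside 0.0137% of all genes. Without vehicle replicate 2 (Kcnd1) or TSA replicate 2 (Kcnn4) 1 gene lost it, beside 0.0503% and 0.0777% of all genes.

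The mark was present in most Kcn genes of either RNA direction. Of the 25 Kcn genes with lower RNA in Tbr2-positive vehicle nuclei, 20 were marked in every Tbr2-positive vehicle library and 23 in every Tbr2-negative one, and 19 were marked in all 15 libraries, among them Kcnq3, Kcnd2 and Kcnma1. Of the 9 with higher RNA 8 were marked in every Tbr2-positive and 7 in every Tbr2-negative vehicle library. Of the 42 tested genes without a call 25 and 29 were. Over all protein-coding genes tested, 84.3% of the genes lower in RNA were marked in every Tbr2-positive and 88.6% in every Tbr2-negative vehicle library. The shares were 92.6% and 91.5% for genes higher in RNA, and 81.8% and 82.2% for genes without a call. The peak at Kcnma1 had −log10 q of 4.42 to 7.48 in Tbr2-positive TSA, 8.77 to 14.2 in Tbr2-positive vehicle, 27.3 to 43.8 in Tbr2-negative TSA and 38.7 to 51.4 in Tbr2-negative vehicle libraries. For Kcnj10, whose RNA was higher in Tbr2-positive nuclei, the same values were 13.3 to 18.8, 24.9 to 39.3, 5.54 to 11.8 and 8.43 to 15.2. These are scores of separately called lists and depend on each list's depth and input, so no test was made on them.

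The windows miss some starts. For 9 genes a listed start was marked in all 15 libraries while the gene ends were not, since an inner start lay more than 1 kb from both ends. Of these, Kcnj3, Kcnk1 and Kcnk13 had no gene-end peak in any library, and Kcnk2, with 2, is the gene whose starts are printed above. Kcne1, without a read in Tbr2-negative libraries, had no peak at its ends in any library. Kcne1l was marked in 2 of 4 Tbr2-positive TSA, 3 of 3 Tbr2-positive vehicle, 2 of 4 Tbr2-negative TSA and 3 of 4 Tbr2-negative vehicle libraries.

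RNA level and the mark were set side by side within the vehicle groups, as a description over genes that are not replicates. In Tbr2-positive vehicle nuclei the 54 Kcn genes marked in every library had a median of 6.82 CPM, the 14 marked in some 0.49 CPM and the 26 marked in none 0.271 CPM. In Tbr2-negative vehicle nuclei the medians were 11.9 CPM for 62 genes, 0.0308 CPM for 15 and 0.342 CPM for 17. Of the genes without a gene-end peak 7 and 6 still had at least 1 CPM in the Tbr2-positive and Tbr2-negative vehicle groups. Kcnj3 and Kcnk1 were among both, and Kcnk13 among the 6. All 3 have a listed start marked in all 15 libraries, so for them these counts do not show RNA without the mark. Kcnrg, among both at 2.56 and 4.21 CPM, had no peak in its span or at its listed start in any library. Another protein-coding gene overlaps Kcnrg. Kcnd1 and Kcne1, among the 7, had no peak in their spans in any library either, and no start of theirs is listed.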

How the data were processed

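The RNA tables hold whole-number counts for 48709 Ensembl genes, as deposited by the authors, and the submitters' processing notes name SAMtools and mm10. Aligner, counter and gene models were not given in the sources used here. H3K9ac values are peak lists called per library with MACS 2.1.0.20140616 at a q threshold of 0.1 against an input, per the file headers. They hold a −log10 q and a fold enrichment per peak, both made by the authors' peak caller, per the file headers. The −log10 q served to describe and filter peaks within a list and the fold enrichment was not used. The 4 input libraries were not analysed here.

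Counts were tested with edgeR 4.0.16 (R 4.3.3): filterByExpr (20078 genes kept), TMM scaling, glmQLFit in its robust form on the 10 libraries together with a mean for each group, quasi-likelihood F tests of 5 contrasts, and Benjamini-Hochberg adjustment over all genes at 0.05. SE is the absolute log2 fold change over the square root of F, and CPM uses TMM-scaled library sizes. Gene ends, strands and promoters came from RefSeq tables of GRCm38.p6. A gene counted as marked where a peak overlapped 1000 bp to either side of either end, read in Python 3.11.15.

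Named in each population comparison were up to 12 called genes per direction with the largest change and at least 1 CPM in a group. In the TSA comparisons and the interaction, these were the called genes and, where fewer than 4 passed, the 4 of smallest p per direction. Every gene with a called mark and a set of class representatives were named throughout, and some genes under these rules are not reported here. Kcn genes, channel lists and marker lists were chosen with earlier results of these data known.

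Alternatives were RLE scaling, no low-count filter, a fit of only the 2 groups compared, a replicate block, DESeq2 1.42.0 and leaving out each library. For peaks they were windows of 500 and 2000 bp, a −log10 q of at least 2, the summit in place of the peak, each library left out, and equally long lists, the last chosen after seeing the data. Tested on simulated data, the fit recovered 52% of genes changed by 1 on the log2 scale and 86% of those changed by 2 between the vehicle populations (19274 genes), and 43% and 82% for TSA in Tbr2-negative nuclei (19301 genes), with 8 false calls each. Each simulation changed 200 genes, drawn from those with a mean above 2 CPM, and left all others unchanged. These shares therefore do not cover Kcn genes with lower counts, and in the data 21.4% of genes were called between the vehicle populations. No libraries were duplicates: within groups the chi-square per gene was 28.7 to 52.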

Additional observations from a re-analysis of the deposited data

Results flagged for a closer look

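For Kcnab1 the effect of TSA differed between the populations by 0.78 on the log2 scale, Tbr2-positive minus Tbr2-negative. It was picked out because both TSA libraries lay above every vehicle library in Tbr2-positive nuclei and below every one in Tbr2-negative nuclei. The interaction had an adjusted p of 0.897 with edgeR and 0.777 with DESeq2, and among all genes tested 0.877% showed this pattern.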

How the results depend on the processing

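Of the counts of called or marked Kcn genes, 256 values under an alternative stayed within 1.5 times the main count and 35 did not. Counts that were 0 in both were taken as staying, and such counts have no sign that could change. Of the values of single named genes 877 kept their side of the threshold, 63 lost the call and 12 gained one. With no filter on low counts, TSA gave 1 higher and 1 lower Kcn gene in Tbr2-positive nuclei, beside 240 and 124 of all 30599 genes. In Tbr2-negative nuclei it gave 1 higher, beside 612. DESeq2 gave 21 lower Kcn genes between the populations under TSA, beside 7.93% of all genes. For TSA it gave 1 higher and 4 lower in Tbr2-positive nuclei, beside 2.73% and 2.32%. In Tbr2-negative nuclei it gave 2 higher and 2 lower, beside 5.41% and 4.56%, and for the interaction 1 higher, beside 0.0349%. Leaving out each RNA library gave 16 to 26 lower and 6 to 9 higher genes between the vehicle populations, and 5 to 15 lower and 2 to 5 higher under TSA. For TSA it gave 0 to 1 lower genes in either population. A fit without a TSA library has a group of 1, which is assumed to vary like the other groups.

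With the replicate block by number, 9 Kcn genes were higher and 28 lower between the vehicle populations, beside 1980 and 2286 of all 20078 genes. Under TSA 4 were higher and 14 lower, beside 809 and 1035. For TSA in Tbr2-negative nuclei 0 were lower, beside 3 of all genes. Same-numbered vehicle libraries had correlated deviations of 0.099, 0.081 and 0.099, not all over 0.1, so the main fit did not pair them. Each vehicle library still correlated best with its own number, and differently numbered ones had -0.078 to -0.015, so pairing by number is not excluded. With a replicate block within treatment, 9 Kcn genes were higher and 28 lower between the vehicle populations, beside 2311 and 2512 of all genes. Under TSA 5 were higher and 15 lower, beside 1048 and 1278. Under TSA the correlation was 0.117 for the same number and -0.117 for different numbers, values that 2 libraries per group force to be equal in size.

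For H3K9ac, TSA in Tbr2-positive nuclei gave 2 lost Kcn genes with a window of 500 bp and 2 with 2 kb, beside 0.836% and 1.41% of all genes. It gave 0 with equally long lists and 1 to 3 with a library left out, beside 0.11% and 1.27% to 1.89%. Between the populations, losses under TSA numbered 4 with 2 kb, beside 1.38%, and in vehicle 5 with equally long lists, beside 0.886%. For TSA in Tbr2-negative nuclei leaving out a library gave 0 to 1 gained and 0 to 1 lost, beside 0.00914% to 0.0594% and 0.0274% to 0.105%. The cause was not tested. The part of depth was not tested either. The Tbr2-negative TSA library with 15173175 tags, the fewest, marked 65 Kcn genes, and the Tbr2-positive TSA library with 30267202, the most, marked 50.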
